A study of Zea mays with 6 samples.

Results

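The genes described here are 10 auxin response factor (ARF) genes of maize, taken by their identifiers from a deposited table of 39305 genes. They are ARF23 (GRMZM2G441325), ARF13 (GRMZM2G378580), ARF11 (GRMZM2G056120), ARF9 (GRMZM2G073750), ARF2 (GRMZM2G153233), ARF3 (GRMZM2G078274), ARF12 (GRMZM2G437460), ARF16 (GRMZM2G028980), ARF28 (GRMZM2G006042) and ARF19 (GRMZM2G013663). Messenger RNA was sequenced from young tassels, the male inflorescence, 2 to 4 mm long, of greenhouse plants in the B73 inbred background. The 3 wildtype libraries were each made from a pool of 5 tassels. The 3 mutant libraries were each made from a pool of 10 tassels of plants heterozygous for both Bif1 and Bif4, written Bif1;Bif4. Bif1 and Bif4 are dominant mutations. Being heterozygous, the mutant plants carry normal copies of both genes as well, and neither single mutant is among the libraries.

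ARFs are transcription factors that bind auxin response elements in the promoters of auxin-responsive genes. At low auxin, Aux/IAA proteins bind many ARFs and bring in corepressors of the TOPLESS type, and auxin leads to the destruction of the Aux/IAA proteins by way of receptors of the TIR1/AFB type. BIF1 and BIF4 are Aux/IAA proteins, and the Bif1 and Bif4 mutations stabilise them against auxin, which impairs the formation of branches, spikelets and flowers on the tassel. In plants, ARFs are divided into an activating class that carries a glutamine-rich middle region and into repressing classes. Transcripts of some ARFs are cut by miR160 or miR167, or by small RNAs made from TAS3 transcripts. No protein or promoter sequence was used here, so the class of each gene was not assigned, and the names are those of the RefSeq gene table.

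In the mutant tassels the 10 ARF genes did not move together. ARF23, ARF13 and ARF9 rose by 1.91-fold, 1.63-fold and 1.51-fold, and ARF11 fell to 0.485 times its wildtype level (limma, adjusted p under 0.05 over all tested genes). ARF3 and ARF2 had differences of similar size in opposite directions that did not pass the test, and in both genes wildtype replicate 2 was high. ARF12, ARF16 and ARF28 had small differences, and ARF19 had at most 1 read in a library. A pooled tassel holds several tissues, so fewer cells of a type and less RNA per cell cannot be told apart in any of these values.

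The libraries held 21047225 to 24636859 reads assigned to genes. The genotypes separated on the first principal component, with 48.2% of the variance, and wildtype replicate 2 stood apart from the other wildtype libraries on the second, with 24.4%. Results that rest on that library are given with and without it. Of the young tassel genes looked for, 5 were found: the meristem gene kn1 (8969 ± 317 normalized counts in wildtype, 7247 ± 566 in the mutant), ub3 (3237 ± 1250, 6655 ± 1074), zfl1 (693 ± 87.5, 384 ± 35.6), ra3 (1801 ± 599, 3.60 ± 1.49) and BA1 (406 ± 97.3, 4.23 ± 3.70; SD, n = 3). The groups overlapped for 0 of these 5 genes, and of all tested genes 26.9% had no overlap. Limma and edgeR called falls of ra3, BA1 and zfl1. DESeq2 called all 5, with kn1 lower and ub3 higher in the mutant. Of all tested genes limma called 5.04%, edgeR 4.61% and DESeq2 9.66%. The 14 leaf photosynthesis rows summed to 1683 to 1857 normalized counts in wildtype and 1678 to 2319 in the mutant. The largest were PPDK (GRMZM2G097457, means of 734 in wildtype and 714 in the mutant) and Pep1 (GRMZM5G899080, 574 and 719). The most read rbcS row had means of 30.5 and 21.2. Of the 14 rows 8 were tested. Limma called 0, with 1 at an unadjusted p under 0.05, and edgeR and DESeq2 called 0 and 0. The cab48 row was at 0 in all libraries. The part of tissue make-up in the results on ARF genes was not tested.

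The level of a gene is given as its normalized count, the read count divided by 1 size factor per library. Transcript lengths were not used here, so an order of genes by this value is an order of read numbers, in which a longer transcript yields more reads. In wildtype the order was ARF13, ARF28, ARF3, ARF11, ARF12, ARF23, ARF16, ARF9, ARF2 and ARF19, by means of 15609 ± 1086, 10991 ± 2127, 3931 ± 1447, 3374 ± 469, 2652 ± 219, 2615 ± 131, 2523 ± 128, 2374 ± 299, 620 ± 234 and 0.305 ± 0.528 normalized counts (SD, n = 3). ARF13 stood first, ARF28 in the next place and ARF2 and ARF19 last in each of the 3 wildtype libraries.

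The places between them were less sharp. The lowest wildtype value of ARF13 was 14464, above the highest value of ARF28 at 12377. ARF3 and ARF11 overlapped, since ARF3 ran from 2782 to 5557 and ARF11 from 3002 to 3900. ARF11 lay just above ARF12, with a lowest value of 3002 against a highest of 2887. ARF12, ARF23, ARF16 and ARF9 were within 1.12-fold of each other by their means, and each overlapped its neighbour in the order. Within each wildtype library ARF12 and ARF23 both lay above ARF16, while ARF12 against ARF23 and ARF16 against ARF9 changed order between libraries. ARF2 lay 3.83-fold below ARF9, with no overlap.

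In the mutant libraries the order was ARF13, ARF28, ARF3, ARF23, ARF9, ARF12, ARF16, ARF11, ARF2 and ARF19. ARF23 took place 4 and ARF9 place 5 in each of the 3 mutant libraries, against places 5 or 6 and 7 or 8 in wildtype. ARF11 was at place 8 in each mutant library and at place 3 or 4 in wildtype. ARF12 and ARF16 were the only neighbours whose mutant values overlapped.

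**Figure D1:**
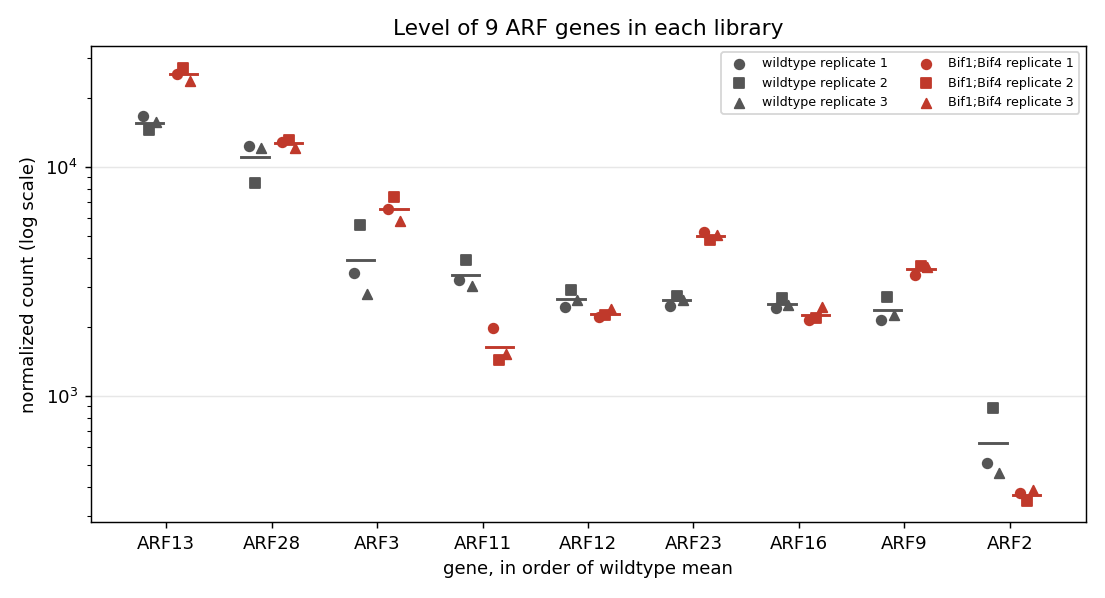
Normalized counts (log axis) of the 9 expressed ARF genes in each library, with wildtype in grey and Bif1;Bif4 in red, a marker shape per replicate and a horizontal line at each group mean. The groups overlap for ARF16 and ARF28 and are apart for the other genes, by narrow gaps for ARF3, ARF2 and ARF12. Wildtype replicate 2 (square) is the lowest wildtype library for ARF13 and ARF28 and the highest for the other genes, by most for ARF2 and ARF3.

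Of the 10 genes, 9 passed the filter of at least 10 normalized counts in at least 3 libraries, and all 9 were far above it in every library, from 351 reads upward. Of these 9, 3 rose, 1 fell and 5 did not pass the test. Over all 21924 tested genes limma called 5.04%, with 2.13% risen and 2.91% fallen. The median log2 fold change was 0.23 over the 9 genes and 0.01 over all tested genes. The genes were listed with earlier results of these libraries known, so their share of calls is a description of the list. The groups of 3 libraries did not overlap for 7 of the 9 genes, against 26.9% of all tested genes.

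Wildtype replicates 1 to 3 held 2478, 2739 and 2627 normalized counts of ARF23, and mutant replicates 1 to 3 held 5185, 4770 and 5019. Every mutant library was far above every wildtype library. The log2 fold change was 0.93 (SE 0.07, limma adjusted p = 6.3e-04). Its spread was small in both groups, with a coefficient of variation, the SD as a percentage of the mean, of 5.01% in wildtype and 4.18% in the mutant.

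ARF13, the most read of the 10 genes, had wildtype values of 16624, 14464 and 15739 and mutant values of 25351, 27133 and 23618, in replicate order. The lowest mutant library lay far above the highest wildtype library. Its log2 fold change was 0.70 (SE 0.09, limma adjusted p = 0.0055), between group means of 15609 and 25367.

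ARF9 had wildtype values of 2147, 2713 and 2262 and mutant values of 3382, 3671 and 3664. All mutant libraries were above all wildtype libraries, and wildtype replicate 2 was the nearest to them. On the log2 scale the fold change was 0.60 (SE 0.10, limma adjusted p = 0.014). The call was lost without wildtype replicate 3, mutant replicate 2 or mutant replicate 3 (adjusted p = 0.062, 0.061 and 0.052), with log2 fold changes of 0.56, 0.58 and 0.58.

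For ARF11 the wildtype values were 3219, 3900 and 3002 and the mutant values 1973, 1433 and 1516. It was the only one of the 9 genes that fell past the test, and all mutant libraries were below all wildtype libraries. Its log2 fold change was -1.04 (SE 0.14, limma adjusted p = 0.0088). Of the 9 tested genes ARF11 had the largest coefficient of variation among mutant libraries, 17.7%, with mutant replicate 1 the highest.

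The 4 calls were also made by edgeR on the recovered reads, with adjusted p = 0.0013 for ARF23, 0.011 for ARF13, 0.012 for ARF11 and 0.021 for ARF9, where edgeR called 4.61% of all tested genes. In the authors' deposited table the adjusted p-values of these genes were 4.3e-27, 1.7e-12, 3.7e-10 and 6.4e-06, with log2 fold changes of 0.91, 0.68, -0.95 and 0.56. That table called 9.09% of the genes with an adjusted p.

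**Figure D2:**
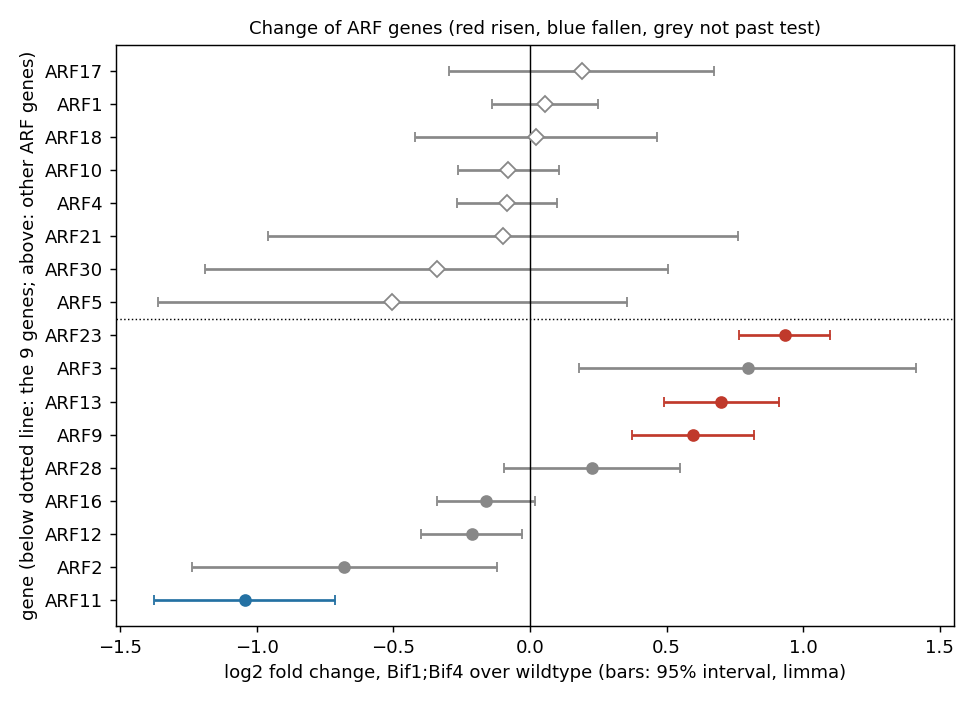
Log2 fold change of Bif1;Bif4 over wildtype for the 9 expressed genes (filled circles, below the dotted line) and for 8 other ARF genes (open diamonds, above it), with 95% intervals from limma, red for risen, blue for fallen and grey for not past the test. ARF23, ARF13 and ARF9 lie right of 0 and ARF11 left of it, while the intervals of all 8 other genes include 0. The genes below the dotted line were listed with earlier results of these libraries known, so the contrast describes the list.

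ARF3 had wildtype values of 3454, 5557 and 2782 normalized counts and mutant values of 6520, 7395 and 5804. The groups did not overlap, but wildtype replicate 2 came close to the lowest mutant library. A log2 fold change of 0.80 (SE 0.25) resulted, which missed the threshold (limma adjusted p = 0.15, and 0.13 with edgeR). Without wildtype replicate 2 the log2 fold change was 1.08 (SE 0.13) and ARF3 passed (limma adjusted p = 0.0037), in a fit that called 3.45% of genes risen. It also passed with the replicate number as a block (limma adjusted p = 0.030), and whether these numbers pair the libraries is not known. Those were the only 2 of 16 alternative settings in which ARF3 passed. It was not called in the authors' deposited table (log2 fold change 0.51, adjusted p = 0.15) or by DESeq2 on the recovered reads (adjusted p = 0.15).

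The values of ARF2 were 511, 888 and 460 in wildtype, against 376, 349 and 386 in the mutant. All mutant libraries were below all wildtype libraries, by a narrow margin from wildtype replicate 3. Its log2 fold change of -0.68 (SE 0.24) missed the threshold (limma adjusted p = 0.16). Without wildtype replicate 2 the wildtype mean was 485 and the log2 fold change -0.39 (adjusted p = 0.086), with an SE of 0.11. ARF2 was called in the authors' deposited table (log2 fold change -0.60, adjusted p = 0.022) and by DESeq2 on the recovered reads (adjusted p = 0.025), which called 9.66% of all tested genes, while edgeR gave adjusted p = 0.12.

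ARF12 had wildtype values of 2452, 2887 and 2617 and mutant values of 2216, 2249 and 2382. The groups lay side by side with a narrow gap and no overlap. The log2 fold change was -0.21, with a 95% interval from -0.40 to -0.03 before any adjustment, and did not pass (limma adjusted p = 0.18).

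For ARF16 the wildtype values were 2411, 2663 and 2494 and the mutant values 2142, 2197 and 2434, and the groups overlapped. Its log2 fold change of -0.16 had a 95% interval from -0.34 to 0.02 (limma adjusted p = 0.29). These bounds leave room for a small fall and for none.

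ARF28 had wildtype values of 12377, 8541 and 12054 and mutant values of 12853, 13100 and 12125. Wildtype replicate 2 was low, and the other wildtype libraries lay within or next to the mutant range. The log2 fold change was 0.23 with a 95% interval from -0.10 to 0.55 (limma adjusted p = 0.41), and it was 0.05 without wildtype replicate 2 (adjusted p = 0.76).

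ARF19 had 1 read in wildtype replicate 2, 1 read in mutant replicate 1 and no read in the other libraries. In the 4 libraries without a read, a count of 0 is compatible with up to 3 reads, or 2.94 to 3.30 normalized counts by library, counting error only, so its level in these tassels lies at or under the limit of detection in both genotypes. It was not tested, and no fold is given.

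The place of wildtype replicate 2 differed from gene to gene. On the log2 scale it lay 0.87 above the mean of the other wildtype libraries for ARF2, 0.84 for ARF3, 0.33 for ARF11 and 0.30 for ARF9, and it lay at -0.52 relative to them for ARF28 and at -0.16 for ARF13. In size, the displacement of ARF2 exceeded that of 92.3% of all tested genes and that of ARF3 exceeded 91.8%, while that of ARF23, 0.10, exceeded 31.8%. The wildtype coefficient of variation was 37.7% for ARF2, 36.8% for ARF3 and 19.4% for ARF28, and 5.01% to 13.9% for the other 6 genes. Counting error alone gives 0.806% to 3.99%, and all 9 genes exceeded their own value in wildtype. Among mutant libraries the same measure was 5.28% for ARF2 and 12.1% for ARF3. Mutant pools held 10 tassels and wildtype pools 5, so genotype and pool size cannot be told apart in these spreads. Without wildtype replicate 2, the wildtype libraries put ARF3 at 3118 and ARF28 at 12215 on average.

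**Figure D3:**
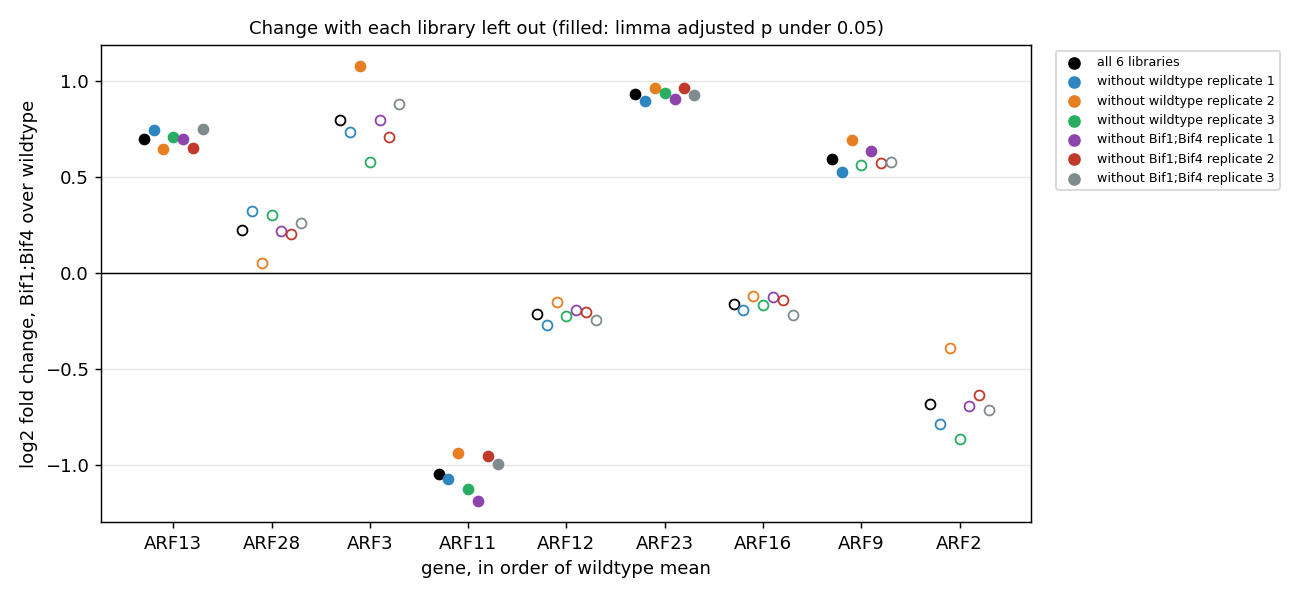
Log2 fold change of Bif1;Bif4 over wildtype of each gene with all 6 libraries (black) and with each library left out (colours), where filled points have a limma adjusted p under 0.05. ARF23, ARF13 and ARF11 stay filled in every fit, ARF9 loses the call in 3 of the fits, and of these fits ARF3 passes only in that without wildtype replicate 2.

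The summed level of the 10 genes was 45673, 44353 and 44038 normalized counts in wildtype and 59999, 62296 and 56949 in the mutant, 1.34 times higher by the means. Of the difference in means, 64.8% was that of ARF13. Within a library, shares of this sum do not depend on the scaling between libraries. ARF13 made up 36.4%, 32.6% and 35.7% of it in wildtype and 42.3%, 43.6% and 41.5% in the mutant. The share of ARF23 went from 5.86% ± 0.387 to 8.37% ± 0.623 (SD, n = 3), and that of ARF11 from 7.55% ± 1.08 to 2.75% ± 0.499.

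ARF12 and ARF16 also had lower shares in the mutant, at 3.83% ± 0.310 against 5.94% ± 0.570 and 3.79% ± 0.420 against 5.65% ± 0.362, where the sum was larger and neither gene's own level passed the test. The share of ARF9 was 5.32% ± 0.725 in wildtype and 5.99% ± 0.407 in the mutant, with overlap between groups. ARF3 and ARF28 had shares of 12.5% and 19.3% in wildtype replicate 2, against 6.32% to 7.56% and 27.1% to 27.4% in the other wildtype libraries.

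ARF23 and ARF11 are the pair with the largest opposite changes, and their ratio was looked at after those values were seen. The ratio of ARF23 to ARF11 was 0.770, 0.702 and 0.875 in wildtype and 2.63, 3.33 and 3.31 in the mutant. ARF11 thus gave more reads than ARF23 in every wildtype library and fewer in every mutant library. ARF23 and ARF12 had nearly equal read numbers in wildtype, with a ratio of 0.949 to 1.01, and a ratio of 2.11 to 2.34 in the mutant.

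The reference table names 10 other ARF genes among the deposited identifiers, of which 8 passed the filter. The 10 genes described here were listed with earlier results of these libraries known, so their contrast with these 8 describes the list. None of the 8 was called by limma, edgeR or DESeq2, and none had an unadjusted p under 0.05 with any of these tools. Limma's unadjusted p ran from 0.21 to 0.91 for the 8, and was at most 0.15 for the 9 tested members. The median log2 fold change of the 8 was -0.08. The most read were ARF18, at 14728 ± 4418 in wildtype and 14546 ± 383 in the mutant, and ARF10, at 9633 ± 732 and 9100 ± 167 (SD, n = 3). ARF18 stood next to ARF13 in the wildtype order of all 20 named ARF genes and overlapped it. ARF31 and ARF33 had no read in any library. Limma's 95% interval of the change was -0.27 to 0.11 for ARF10 and -0.42 to 0.46 for ARF18, so a change of the size of ARF23's lies outside both.

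Other genes of auxin signalling were set beside the ARFs. Of the 4 Aux/IAA genes in the list, 2 fell, 0 rose and 2 did not pass. Of all tested genes limma called 2.91% fallen and 2.13% risen. The list was made by symbol and holds the mutated genes BIF1 and BIF4, so its counts do not describe the family. BIF1 had a log2 fold change of -1.94 (limma SE 0.21, adjusted p = 0.0029), and rum1-like1, related to the root gene rum1, one of -0.40 (SE 0.08, adjusted p = 0.034). BIF4 had a log2 fold change of -0.77 (adjusted p = 0.086, and 0.020 with DESeq2, which called it) and IAA12 of -0.71 (adjusted p = 0.47). The call for rum1-like1 was lost without wildtype replicate 1 or 3 (limma adjusted p = 0.072 and 0.11), without mutant replicate 2 or 3 (0.13 and 0.11) and with the replicate block (0.069). It held without wildtype replicate 2 or mutant replicate 1 (0.037 and 0.043).

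The corepressor gene rel2, of the TOPLESS type, had wildtype values of 16212, 13650 and 14831 normalized counts and mutant values of 17406, 17332 and 16926. Its groups did not overlap, and its log2 fold change was 0.21 (limma adjusted p = 0.21). GH3, for an enzyme family that conjugates auxin to amino acids, had a log2 fold change of 0.77 (limma adjusted p = 0.15) and was called by DESeq2 but not by edgeR. The only SAUR gene in the list, saur3, had at most 1.96 normalized counts. TIR1/AFB receptor genes were looked for by symbol and none was found, so their levels are not given.

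Among genes for small RNAs that act on ARF transcripts, the list held lbl1, which encodes the SGS3 protein needed for TAS3 small RNAs, rdr6, and 3 identifiers of dcl4. None of these 5 rows was called by limma, edgeR or DESeq2, and 1 had an unadjusted p under 0.05 with limma. The most read, lbl1, was at 12855 to 15866 in wildtype and 14566 to 14609 in the mutant (log2 fold change 0.08, adjusted p = 0.70). The 4 precursor rows of MIR160 and 7 of the 8 of MIR167 had no read in any library. The libraries were made from messenger RNA, and how well they capture such precursors was not tested.

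For each called gene, the most alike profiles among 1791 other genes with an informative name and a mean of at least 50 were sought by Pearson's r of log2(value + 1) over the 6 libraries. These were Ann6 (r = 0.993) and LTP3 (0.992) for ARF23, fcr1 (0.998) and Sod3.2 (0.995) for ARF13, PDK1 (0.995) and TAB2 (0.988) for ARF11, and ibp2 (0.995) and sod4 (0.991) for ARF9. Any gene that differs evenly between genotypes scores high on this measure, and 21 to 48 genes had r above 0.95 for each ARF. The sizes of change differed within these pairs: ARF11 had a log2 fold change of -1.04 and TAB2 of -3.12, while PDK1 had a log2 fold change of -0.27, not past the test (adjusted p = 0.060).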

How the data were processed

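The tools named in the submitters' processing notes are TopHat2 2.1.1, HTSeq, DESeq2 and Trimmomatic. Neither build nor annotation nor strand setting is given in the sources used. The deposited table holds a signal per gene and library: the authors scaled each library's read counts by a single size factor. It also holds the authors' mean signal, log2 fold change with its SE, p-values (raw and adjusted) and test statistic, a score. In each column 100% of values were whole multiples of 1 step within 1e-06 reads, so read counts were recovered.

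The main test was limma 3.58.1 (trend, robust) on log2(value + 1), with Benjamini-Hochberg adjustment over 21924 genes; p-values are two-sided. It was tested on simulated data. The pools of a group are not stated to come from separate growths, so p-values measure the spread between pools and may not cover that between growths. Alternatives were DESeq2 1.42.0 and edgeR 4.0.16 on recovered reads, other filters, pseudocounts and scalings, a replicate block and leaving out each library. Computation used R 4.3.3 and Python 3.11.15.

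Names came from RefSeq's gene table (assembly Zm-B73-REFERENCE-NAM-5.0), in which 18476 identifiers matched 1 gene. It gives no descriptions, so lists were made by symbol, and a lower-case arf1 was left out as an ADP-ribosylation factor name. Coding lengths and sequences were not available here for the planned ranking per length. Near-identical copies could share reads. The genes named were all 10 members, called list members or the most read where none was called, and the most alike profiles. Members and lists were chosen with earlier results of these data known.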

Additional observations from a re-analysis of the deposited data

How the results depend on the processing

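ARF23, ARF13 and ARF11 stayed past the test in all 16 alternatives, with log2 fold changes from 0.89 to 0.97, from 0.65 to 0.75 and from -1.18 to -0.94. ARF9 kept its call in 12 of the 16. It lost the call in 4: without wildtype replicate 3, mutant replicate 2 or mutant replicate 3, and at a threshold of 0.01. The 9 genes kept their direction in each of the 16. At 0.01, 2 members rose and 1 fell. DESeq2 called ARF2 as well, so that 2 members fell. Over all genes, 467 rose and 637 fell; DESeq2 gave 1001 and 1117, the cause of which was not tested, and a threshold of 0.01 gave 94 and 180 by construction. With single libraries removed, the count of risen genes ran from 158 to 745, that of fallen genes from 244 to 554, with 2 to 4 risen members and 1 fallen member, with fewer libraries fitted. Without wildtype replicate 2, where 745 genes rose, ARF23 took place 5 and ARF12 place 6 in wildtype, and over the wildtype libraries left out both ranged from 5 to 6. With the replicate number as a block, 381 genes rose and 429 fell, with 4 risen and 1 fallen members, ARF3 being added. Correlations between the deviations of libraries with equal numbers were 0.07, -0.17 and -0.03, and those with unequal numbers ran from -0.31 to 0.26. Deviations from a mean of 3 libraries are tied to each other, so these values cannot decide whether the numbers pair the libraries. Scaling moved the median of all genes by less than 0.1 on the log2 scale. The ranking and shares per coding length were not run.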

Other observations

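Wildtype replicate 2 also stood apart in ARF genes outside the 10. It held 19777 normalized counts of ARF18, where wildtype replicates 1 and 3 held 11571 and 12837 and the mutant libraries 14180 to 14943, and ARF30 was at 1272 against 753 and 569, with 512 to 874 in the mutant. In contrast ARF10 and ARF4 ranged from 8922 to 10384 and from 3588 to 4064 over the wildtype libraries. The precursor row of MIR390a, whose microRNA starts the making of TAS3 small RNAs, was picked after its values were seen. Its wildtype values were 2.20, 2.75 and 6.19 and its mutant values 25.3, 6.95 and 11.7, below the filter for testing.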
